A study of Homo sapiens with 16 samples.

Results

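The DNA replication machinery was followed through RNA from 2 human cell lines as a list of 49 genes. The genes were chosen by name, with earlier results of these data known. They encode the proteins that mark and license origins, unwind the duplex, copy both strands and supply some of the building blocks. Each gene was taken as the row of the gene tables whose NCBI gene number maps to its symbol. All 49 were found, 1 row each, among 27434 rows, and all 49 passed the filter on low counts in every comparison.

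The libraries came from a study of the RNA-binding protein SAM68 (gene KHDRBS1) and the long noncoding RNA NORAD, which binds Pumilio proteins. Poly(A) RNA of U2OS, an osteosarcoma line, and HCT116, a colorectal carcinoma line, was sequenced in 16 libraries, 2 for each of 8 groups. U2OS cells received control siRNA, SAM68 siRNA, the empty plasmid pcDNA3.1(+) or pcDNA3-HA-SAM68, which carries the mouse gene. HCT116 cells were wild type (WT) or SAM68 knockout (KO), and each genotype received a control siRNA pool or a NORAD siRNA pool. The dose was 50 nM siRNA, or 100 ng plasmid per 20000 cells, with harvest after 48 h. All cells were therefore transfected, controls included. The labels do not say whether the knockout line is 1 clone. Nor do they name separate cultures for the paired libraries of a group, so every p-value here reflects the spread of these particular libraries, possibly a technical one. In bulk RNA, fewer cells in S phase and less RNA per cell cannot be told apart.

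Replication starts at origins, where the origin recognition complex (ORC), CDC6 and CDT1 load the ring-shaped MCM2-7 helicase in G1 phase, while geminin (GMNN) blocks a second loading. In S phase the kinase CDC7 with its activator DBF4, together with TOPBP1, brings CDC45 and the GINS complex to the helicase. DNA polymerase alpha with primase lays the primers, polymerases epsilon and delta extend them, the clamp PCNA and its loader RFC hold the polymerases on DNA, RPA covers single strands, and FEN1, DNA2 and LIG1 join the lagging-strand pieces. In dividing cells many of these genes are transcribed together before S phase by E2F factors, which bind sequences such as TTTCCCGC near the start sites.

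The libraries held 11349545 to 27387412 expected counts. KHDRBS1 stood at 206.3 to 241.3 CPM (counts scaled to library size) in the 4 WT and 31.59 to 44.5 CPM in the 4 KO libraries. In U2OS it was at 48.6 and 80.67 CPM after SAM68 siRNA against 244.7 and 248.7 CPM in its controls, and the SAM68 plasmid libraries had 530.6 and 593.3 CPM where those of the empty plasmid had 219.9 and 276.9 CPM. NORAD was at 47.4 to 77.37 CPM after its siRNA and at 224.7 to 251.7 CPM in the HCT116 controls. Of 8 colon epithelial markers, 6 reached 1 TPM (a level scaled by transcript length and library size) in HCT116, where they summed to 4110 to 5300 TPM and VIL1 was at 0. Those 8 summed to 926 to 1300 TPM in U2OS, and 8 mesenchymal and bone markers to 2910 to 4520 TPM in U2OS and 38.5 to 46.4 TPM in HCT116. None of 6 markers of other cell types reached 1 TPM.

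A sequence feature that the choice of members did not use was more frequent in the promoters of the list than in promoters at large. RefSeq promoter sequences of assembly GRCh38.p14, from 250 bases before to 50 after the start, were matched for 42 of the 49 genes. The E2F-type sequences TTTCCCGC, TTTCGCGC, TTTGCCGC and TTTGGCGC were searched on both strands. A match was found in 20 of the 42 promoters, or 47.6%, against 3.33% of 27305 promoters of the same length and 5.26% of the 10482 promoters of genes tested in HCT116. Windows of 30 bases follow for 9 genes described below, on the gene's strand, with the match in capitals. They are shown because genes called higher and genes called lower in the knockout both carry it, in 3 of 4 and 6 of 8 matched promoters. A match is a description of these letters only.

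MCM2 (chr3:127598402-127598431, plus strand): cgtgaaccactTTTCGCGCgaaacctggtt
MCM3 (chr6:52284728-52284757, minus strand): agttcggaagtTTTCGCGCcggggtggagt
MCM7 (chr7:100101388-100101417, minus strand): ggggggcgacgTTTCGCGCcaatttcggtt
CDT1 (chr16:88803743-88803772, plus strand): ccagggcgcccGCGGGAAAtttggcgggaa
POLE (chr12:132687342-132687371, minus strand): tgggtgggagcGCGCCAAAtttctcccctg
LIG1 (chr19:48170440-48170469, minus strand): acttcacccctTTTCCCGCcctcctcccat
ORC3 (chr6:87590112-87590141, plus strand): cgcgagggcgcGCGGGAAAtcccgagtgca
POLE2 (chr14:49688201-49688230, minus strand): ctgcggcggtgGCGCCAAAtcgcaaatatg
MCM8 (chr20:5950667-5950696, plus strand): ggatcactgaaGCGCCAAAaaagaatttag

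In MCM2 the sequence reads as a match on both strands, overlapping in the middle. In CDT1, POLE, ORC3, POLE2 and MCM8 the match lies on the opposite strand, so it appears as its reverse complement.

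Levels between genes were compared in TPM, which is scaled by transcript length. The list was abundant in both lines: the median member stood at 53.0 TPM in HCT116 and 69.5 TPM in U2OS, against 8.53 and 6.87 TPM for all genes above 0. Its 49 genes summed to 4530 to 5400 TPM per HCT116 library and 4310 to 5810 TPM per U2OS library. PCNA, the sliding clamp, led in HCT116 with a median of 527.7 TPM over the 8 libraries, and TYMS, which makes thymidylate, led in U2OS with 610.2 TPM. At the other end, POLD3, an accessory subunit of polymerase delta, had a median of 12.75 TPM in HCT116, and DNA2, a nuclease-helicase of the lagging strand, one of 16.04 TPM in U2OS. The highest member exceeded the lowest by 41.4-fold in HCT116 and 38.0-fold in U2OS.

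Subunits of one complex did not stand at one level. In HCT116 the helicase ring ran from MCM2 with a median of 142.5 TPM to MCM7 with 367.9 TPM, and MCM2 (142.5), MCM6 (155.5), MCM5 (179.2) and MCM4 (183.3 TPM) were neighbours whose library ranges overlapped. The 6 ORC subunits lay lower, between 21.17 TPM for ORC4 and 62.33 TPM for ORC6. Within GINS the spread was wider: GINS2 had a median of 154.8 TPM, while GINS1, GINS3 and GINS4 had 32.47, 22.27 and 16.41 TPM. The catalytic subunits of the 3 replicative polymerases were close together, POLE at 41.87, POLD1 at 29.09 and POLA1 at 24.86 TPM, and the accessory subunit POLD2 was at 168.5 TPM. Both kinase partners lay in the lower part of the list, with DBF4 at 30.75 and CDC7 at 27.91 TPM, above the 8.53 TPM of all genes above 0.

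**Figure D1:**
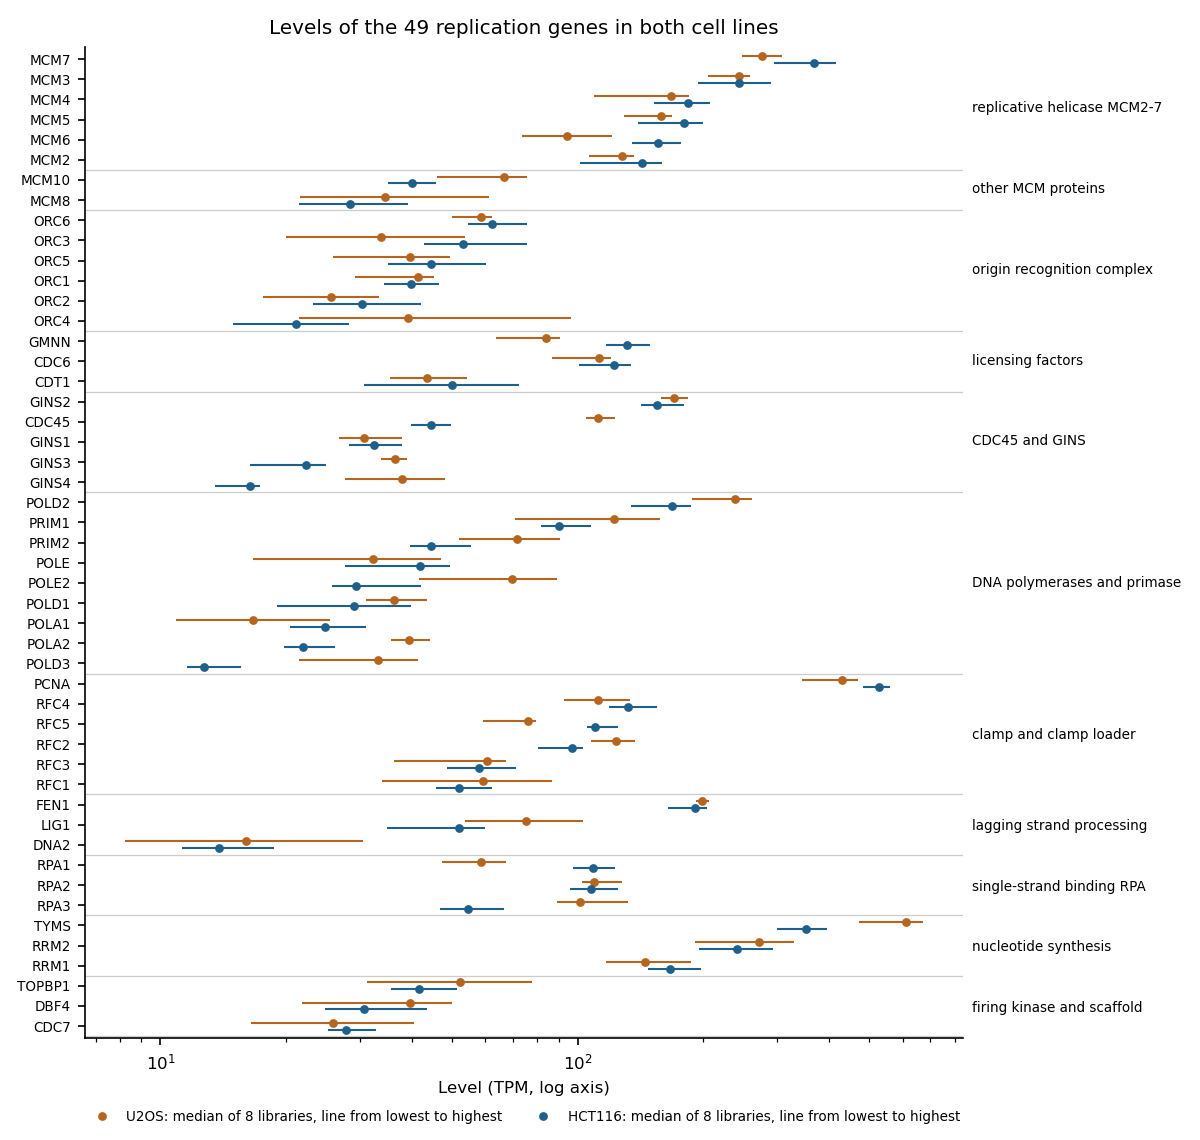
Level of each of the 49 genes in TPM (log axis), grouped by role. Points are medians over the 8 libraries of a cell line and lines run from the lowest to the highest library. PCNA and MCM7 lead in HCT116 at 527.7 and 367.9 TPM, and the ORC subunits lie below the MCM2-7 helicase.

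In all, 10 comparisons were made, each with edgeR's quasi-likelihood test and adjusted p-values over all tested genes. A gene is said to be called when its adjusted p is below 0.05. Members were called in 3 of the comparisons, namely knockout against wild type under NORAD siRNA, the same averaged over both siRNAs, and U2OS against HCT116.

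**Figure D2:**
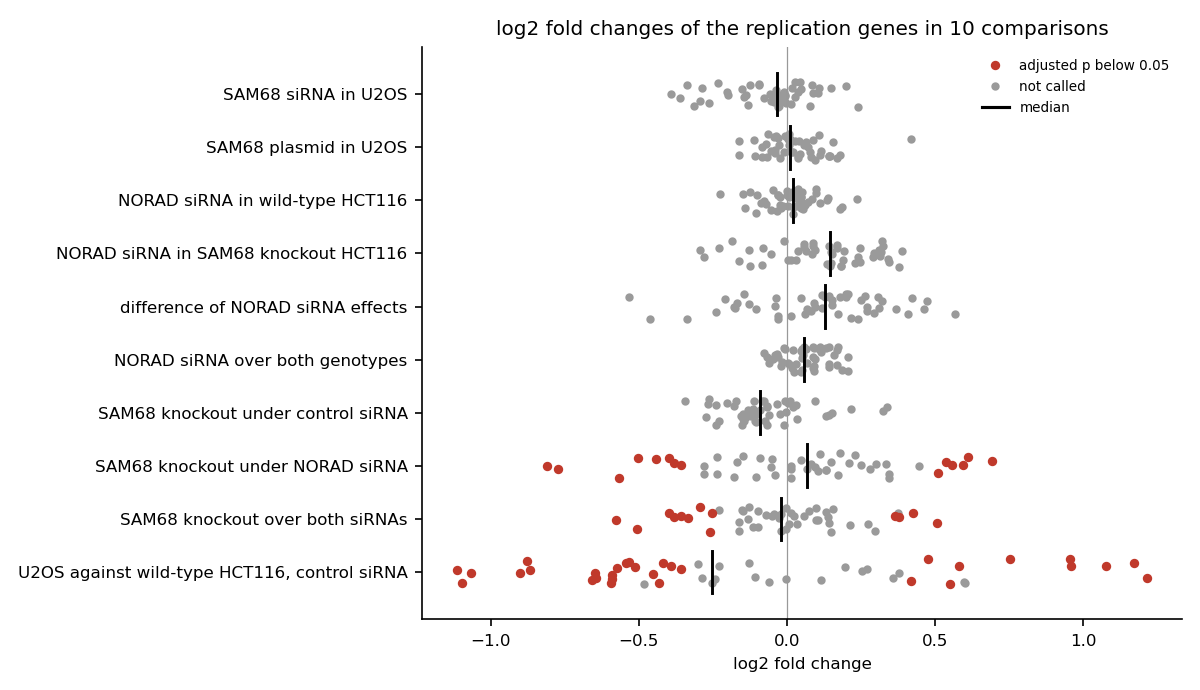
log2 fold change (x axis) of each of the 49 genes in 10 comparisons, with called genes in red and the median as a black bar. Called members appear in 3 rows: 14 in the knockout under NORAD siRNA, 13 in the knockout over both siRNAs, and 31 in U2OS against HCT116.

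Between SAM68 knockout and wild-type HCT116, replication genes were called in both directions. Averaged over both siRNAs, 13 of the 49 genes (26.5%) were called, 4 higher and 9 lower, against a background of 17.6% of all tested genes, 11.0% higher and 6.62% lower. The genes called lower were the helicase subunits MCM2, MCM3, MCM5 and MCM7, the licensing factor CDT1, POLE (catalytic subunit of polymerase epsilon), POLD1 and POLD2 of polymerase delta, and the ligase LIG1. Those called higher were ORC3, POLE2 (the second subunit of polymerase epsilon), MCM8, a helicase of repair rather than of the main ring, and the kinase activator DBF4. The median log2 fold change of the 49 was -0.02, beside -0.01 for all tested genes, with 22 members positive and 27 negative. With the offset for GC content described further on, 10 members were positive and 39 negative, and the median was -0.10 beside 0.00 for all genes tested that way. The counts of calls rest on single libraries: without the first WT NORAD siRNA library no member was called, and other omissions gave 2 to 16.

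ORC3 (gene 23595), a core subunit of the origin recognition complex, had the smallest p. It was measured at 66.11 and 70.20 CPM in WT cells with control siRNA and at 64.44 and 74.03 CPM with NORAD siRNA. In KO cells it was at 82.02 and 88.53 CPM with control siRNA and at 118.5 and 105.0 CPM with NORAD siRNA. All 4 KO libraries lay above all 4 WT libraries. The log2 fold change was 0.51 (SE 0.08, adjusted p = 0.00799), or 1.42-fold. ORC3 overlaps AKIRIN2 in the annotation, and whether counting used the strand is not given in the sources used here. The other ORC subunits were not called: ORC4, ORC2 and ORC5 had log2 fold changes of 0.38, 0.30 and 0.28, ORC6 one of 0.07 and ORC1 one of -0.16.

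POLE (gene 5426) and POLE2 (gene 5427), which work in one enzyme, went opposite ways. POLE was at 215.8, 224.9, 224.4 and 232.5 CPM in the WT libraries and at 185.8, 181.6, 148.7 and 174.0 CPM in the KO libraries, each in the order control siRNA then NORAD siRNA. POLE2 was at 28.26, 28.07, 27.03 and 28.23 CPM in WT and at 30.90, 34.51, 39.38 and 40.78 CPM in KO. Neither gene's WT and KO libraries overlapped. The log2 fold changes were -0.38 (SE 0.07, adjusted p = 0.0136) for POLE and 0.38 (SE 0.08, adjusted p = 0.0168) for POLE2. Of the polymerase delta genes, POLD1 was called at -0.51 (SE 0.13), with overlapping groups, and POLD2 at -0.29 (SE 0.08), while POLD3 had 0.03. The polymerase alpha genes POLA1 and POLA2 had 0.00 and -0.15 and the primase genes PRIM1 and PRIM2 had 0.15 and 0.21, none of them called.

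All 6 subunits of the MCM2-7 helicase had negative log2 fold changes, and 4 were called. MCM2 (gene 4171) was at 328.9, 298.1, 329.5 and 300.8 CPM in WT and at 277.7, 241.5, 229.3 and 235.2 CPM in KO, a log2 fold change of -0.36 (SE 0.08, adjusted p = 0.0186). MCM7 (gene 4176) was at 701.3, 681.1, 739.9 and 688.6 CPM in WT and at 603.7, 545.0, 572.3 and 512.9 CPM in KO, a log2 fold change of -0.33 (SE 0.07, adjusted p = 0.0197). Every KO library of both genes lay below every WT library. MCM3 and MCM5 were called at -0.26 and -0.25, the MCM5 groups overlapping, and MCM6 (-0.11) and MCM4 (-0.05) were not called. MCM7 overlaps AP4M1 and microRNA genes in the annotation. MCM8 was at 47.67 to 60.08 CPM in WT and 63.12 to 81.15 CPM in KO, a log2 fold change of 0.42 (SE 0.09, adjusted p = 0.0197), whereas MCM10, a firing factor, had 0.01.

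LIG1 (gene 3978), which seals nicks between lagging-strand pieces, was at 116.3, 101.2, 121.1 and 113.8 CPM in WT and at 101.0, 84.80, 77.49 and 81.08 CPM in KO. The groups met without overlapping, and the log2 fold change was -0.40 (SE 0.08, adjusted p = 0.0184). The other lagging-strand genes FEN1 and DNA2 had -0.15 and 0.14 and were not called. CDT1 had the most negative log2 fold change of the list, -0.58 (SE 0.16, adjusted p = 0.0383), with overlapping groups: its 4 WT libraries ran from 69.41 to 113.2 CPM and its 4 KO libraries from 52.55 to 82.21 CPM. Its partner CDC6 and its inhibitor GMNN had -0.04 and 0.02. None of the 5 CDC45 and GINS genes, the 6 clamp and clamp loader genes, the 3 RPA genes or the 3 nucleotide synthesis genes was called. PCNA (0.01), RRM2 (0.00) and RFC1 (-0.02) were among those with log2 fold changes nearest to 0.

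**Figure D3:**
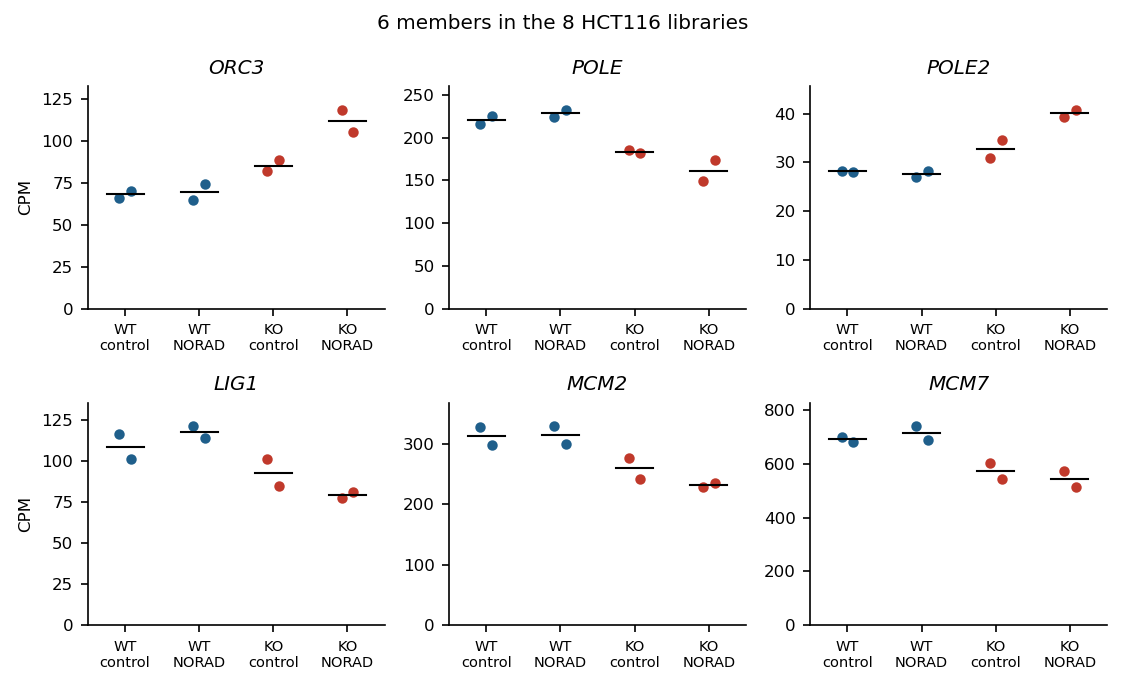
CPM (y axis, from 0) of the 6 called members with the smallest p in the knockout over both siRNAs, in each HCT116 library, with WT in blue, KO in red and group means as bars. ORC3 and POLE2 are higher in all 4 KO libraries, and POLE, LIG1, MCM2 and MCM7 are lower.

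The knockout was also compared under each siRNA alone, and the difference between the siRNAs is the interaction tested further on, in which no member was called. Under NORAD siRNA 14 members were called, 6 higher and 8 lower, against 18.1% of all tested genes (11.6% higher, 6.58% lower), and 12 of them were among the 13 above. ORC4 and ORC5 were called there as well, at 0.61 (SE 0.18) and 0.56 (SE 0.15). Under control siRNA no member was called by edgeR or DESeq2, against 0.312% of all tested genes, and 6 had an unadjusted p below 0.05 (9.22% of all tested genes), namely ORC3 and MCM8 with positive and MCM2, MCM3, MCM7 and POLE with negative log2 fold changes. All 13 genes called over both siRNAs had the same sign under control siRNA, which is one of the differences averaged. Leaving out any 1 of the 4 libraries compared under NORAD siRNA left 0 to 2 members called (ORC3 and POLE remained without the second KO NORAD siRNA library).

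Base composition moved with these results. The transcripts of the 49 genes had a GC content of 37.6 to 65.0%, with a median of 45.4% beside 49.0% for all tested genes. All 14 members of 50% or more had a negative log2 fold change in the knockout over both siRNAs (median -0.28), and the 35 below 50% split into 22 positive and 13 negative (median 0.06). CDT1 and POLD1, the most GC-rich members at 64.9 and 65.0%, had the most negative values. Across the 49 genes, measured in the same 8 libraries, Spearman's rho between GC content and log2 fold change was -0.875, and across all tested genes it was -0.643. These are descriptions over genes, which are not independent replicates.

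**Figure D4:**
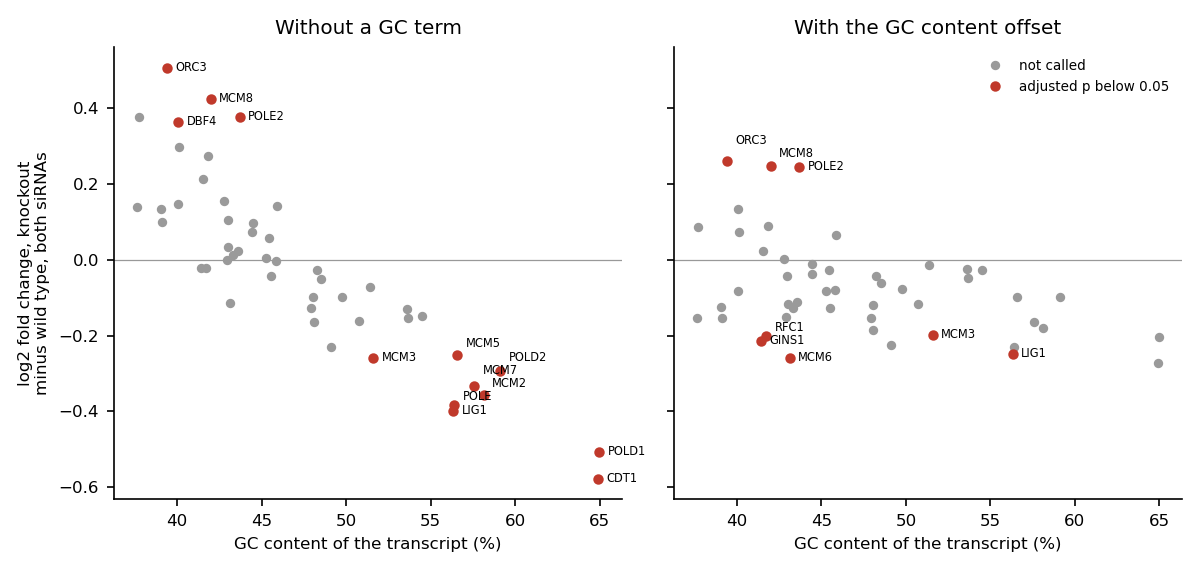
log2 fold change of the knockout over both siRNAs (y axis) against transcript GC content in percent (x axis) for the 49 genes, with called genes in red. Without a GC term the points fall from upper left to lower right (rho -0.875), and with the offset ORC3, MCM8 and POLE2 stay above 0 and called.

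The same trend stood in single libraries. The correlation of each library's deviation from the HCT116 mean with GC content, over all genes, was 0.649 and -0.134 in WT with control siRNA, 0.687 and 0.468 in WT with NORAD siRNA, 0.477 and -0.472 in KO with control siRNA, and -0.618 and -0.719 in KO with NORAD siRNA. The GC-rich members had median deviations of 0.04 to 0.19 (log2) in the 4 WT libraries and of -0.19 to 0.01 in the 4 KO libraries. The sign thus followed the genotype except in the second WT control library, at -0.134, and the first KO control library, at 0.477. In that KO library 9 of the 13 genes called over both siRNAs lay outside the range of the 4 WT libraries in the called direction. POLE (185.8), MCM2 (277.7), MCM3 (436.1), MCM7 (603.7), POLD2 (149.3) and LIG1 (101.0 CPM) were below it, and ORC3 (82.02), POLE2 (30.90) and MCM8 (63.12 CPM) above it. The other 4, CDT1 (82.21), POLD1 (62.93), MCM5 (261.1) and DBF4 (66.47 CPM), lay within it. This KO library was among those from which the 13 genes were called, so the count is not independent of the calls. No share over all tested genes was taken beside it.

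**Figure D5:**
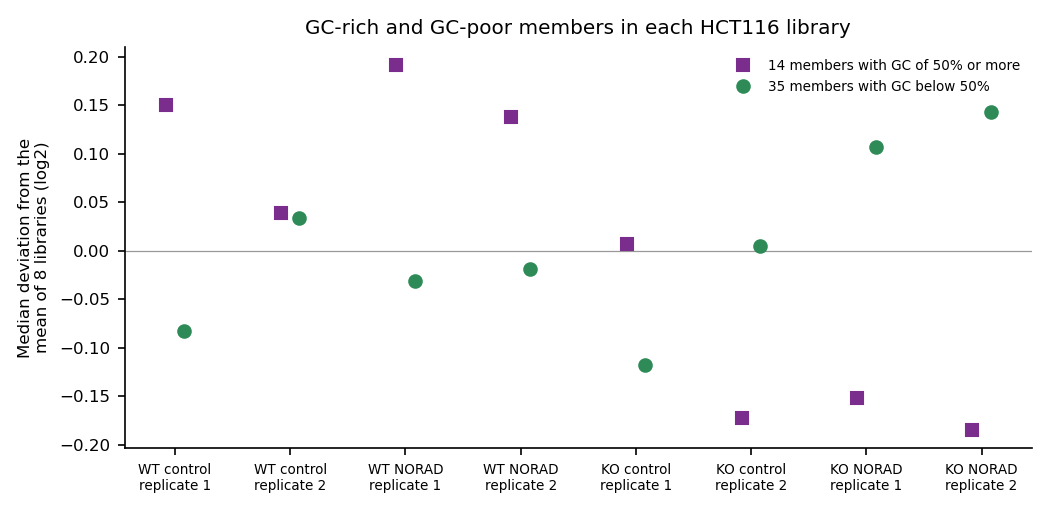
Median deviation (log2) of the 14 GC-rich members (squares) and the 35 GC-poor members (circles) from the mean of the 8 HCT116 libraries, by library. GC-rich members are lowest in the second KO control library and both KO NORAD siRNA libraries, and highest in the first WT NORAD siRNA library at 0.19.

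With an offset for the trend of each library with GC content, 8 members were called over both siRNAs, against 8.96% of all genes tested that way, and rho fell to -0.347. ORC3 (0.26, adjusted p = 0.0269), MCM8 (0.25, adjusted p = 0.028) and POLE2 (0.24, adjusted p = 0.0384) were called higher. LIG1 (-0.25, adjusted p = 0.0258) and MCM3 (-0.20, adjusted p = 0.0444) were called lower, and so were MCM6 (-0.26), GINS1 (-0.22) and RFC1 (-0.20), which were not called without it. The other 8 of the 13 kept their sign and lost the call. These were CDT1 (-0.27, adjusted p = 0.0581), POLE (-0.23, adjusted p = 0.0652), POLD1 (-0.20, adjusted p = 0.063), MCM2 (-0.18, adjusted p = 0.0556), MCM7 (-0.16, adjusted p = 0.105), POLD2 (-0.10, adjusted p = 0.261), MCM5 (-0.10, adjusted p = 0.28) and DBF4 (0.13, adjusted p = 0.144). All 6 helicase subunits stayed negative. Under NORAD siRNA alone no member was called with the offset, against 2.77% of all genes, and the median turned from 0.07 to -0.07. The offset was computed from all genes, so a change of the cells that follows GC content and one of the libraries cannot be told apart.

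NORAD siRNA was compared with control siRNA within each genotype. In WT cells no member was called by edgeR or DESeq2 (background 0.00727%, 1 gene), none had an unadjusted p below 0.05 (1.32% of all tested genes), and the median log2 fold change was 0.02. The smallest p belonged to POLA2, the second subunit of polymerase alpha, at 46.60 and 48.19 CPM with control and 52.80 and 54.60 CPM with NORAD siRNA, a log2 fold change of 0.18 (SE 0.11). ORC5 followed at 45.67 and 49.35 CPM against 39.52 and 41.80 CPM (-0.22, SE 0.15), and RPA2 at 105.2 and 104.6 CPM against 111.0 and 119.2 CPM (0.13, SE 0.09). The smallest adjusted p among the members was 0.999. Over the members rho with GC content was 0.656, opposite in sign to that in KO cells given below. Of the 14 GC-rich members 13 were positive, and of the 35 GC-poor members 18.

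In KO cells most members had a positive log2 fold change with NORAD siRNA, and none was called. Of the 49 genes 38 had a positive log2 fold change, where 50.5% of all tested genes did, and the median was 0.15 beside 0.00. No member was called by edgeR or DESeq2 (background 0.00727%), and the smallest adjusted p was 0.428. An unadjusted p below 0.05 was found for 11 members, all positive, where 11.3% of all tested genes had one. The 2 NORAD siRNA libraries lay above the 2 control libraries in 23 members and below them in 5, against 22.0% and 21.4% of all tested genes.

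ORC3 had the smallest p there too, at 82.02 and 88.53 CPM with control against 118.5 and 105.0 CPM with NORAD siRNA (log2 0.39, SE 0.11). Geminin (GMNN) was at 73.99 and 71.37 against 97.15 and 87.06 CPM (0.34, SE 0.11). PRIM1, the catalytic primase subunit, was at 66.03 and 68.04 against 86.15 and 80.31 CPM (0.31, SE 0.10). In each of these genes the groups did not overlap. GC content tracked these values closely, with a rho of -0.879 over the members: 34 of the 35 GC-poor members were positive and 10 of the 14 GC-rich members negative. With the GC offset 41 of the 49 members were positive, and the median was 0.07 beside 0.00 for all genes tested that way.

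The difference between the NORAD siRNA effects of the genotypes was tested as an interaction. No member was called by edgeR or DESeq2, against 0.0% of all tested genes, 4 had an unadjusted p below 0.05 (7.61% of all tested genes), and the smallest adjusted p was 0.642. The median difference was 0.13, and rho with GC content was -0.922. RFC3, a clamp loader subunit, had a difference of 0.42 (SE 0.16), ORC5 one of 0.57 (SE 0.21) and DBF4 one of 0.46 (SE 0.18). Averaged over the genotypes, NORAD siRNA gave no call among the members by either tool (background 0.00727%), 3 unadjusted p-values below 0.05 (ORC3, GMNN and PRIM1, beside 3.56% of all tested genes), and a median of 0.06. The comparisons with NORAD siRNA and with the knockout share libraries, so their values are not independent of each other.

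In U2OS neither change of SAM68 gave a call among the replication genes. After SAM68 siRNA no member was called by edgeR or DESeq2 and none had an unadjusted p below 0.05, against backgrounds of 0.00639% and 1.06%. The log2 fold changes ran from -0.39 to 0.24 with a median of -0.03, and the median SE was 0.19. RRM1, the large subunit of ribonucleotide reductase, had the smallest p, at 295.7 and 264.8 CPM with control and 254.0 and 205.7 CPM with SAM68 siRNA (-0.29, SE 0.17). POLA1 was at 69.03 and 65.11 against 66.63 and 36.06 CPM, and PRIM1 at 105.1 and 86.34 against 89.71 and 64.69 CPM, and in both genes the groups overlapped.

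The 2 SAM68 siRNA libraries stood far apart from each other in several members. ORC4 was at 305.5 and 74.78 CPM, MCM8 at 109.6 and 41.81 CPM, and RFC1 at 204.5 and 86.26 CPM in these replicates. The first of these libraries held the fewest counts of all 16, 11349545, and its deviations correlated with GC content at -0.521, those of the second at 0.429. The part of depth and base composition in these values was not tested. Only 4 of the 13 genes called in the knockout over both siRNAs had the same sign after SAM68 siRNA. ORC3, MCM8 and POLE2 had -0.05, -0.26 and -0.14 there. Across the 49 genes, rho between GC content and log2 fold change was 0.551 after SAM68 siRNA, opposite in sign to the -0.875 of the knockout. The part of base composition in these differing signs was not tested.

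With the SAM68 plasmid no member was called by edgeR or DESeq2 (background 0.00639%), none had an unadjusted p below 0.05 (0.549% of all tested genes), and the median was 0.01, equal to that of all tested genes. RPA3, the small RPA subunit, stood at 102.0 and 97.05 CPM in the controls and 165.9 and 100.6 CPM in the SAM68 plasmid libraries, a log2 fold change of 0.42 (SE 0.27) that rests on 1 library. MCM4 was at 403.3 and 460.4 against 371.5 and 401.4 CPM (-0.16, SE 0.16). POLA2 was at 72.95 and 79.02 against 94.75 and 76.38 CPM (0.17, SE 0.18), with overlapping groups.

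Between the cell lines, under control siRNA, 31 of the 49 genes (63.3%) were called, close to the 65.4% of all tested genes, so the number itself is that of the background. The directions were uneven: 10 were higher and 21 lower in U2OS than in WT HCT116, where 35.6% of all tested genes were higher and 29.8% lower, and the median was -0.25 beside 0.10. The GC content of these members had a rho of -0.242 with the difference. The directions depend on the scaling, since in TPM the median member was higher in U2OS, at 69.5 against 53.0 over all libraries of a line. FEN1, called lower at -0.36, had means of 201.8 TPM in U2OS and 201 TPM in WT HCT116 under control siRNA. Other genes called lower were also close in mean TPM there: GINS1 at 32.8 against 34.09, RPA2 at 105.9 against 109 and RFC4 at 123 against 131. The MCM2-7 subunits and the licensing factors were lower in U2OS in mean TPM as well. For MCM3 the libraries overlapped, at 256.8 and 255.7 TPM in U2OS and 255.8 and 289.9 TPM in HCT116. Cell line and any handling of the lines cannot be told apart.

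The whole helicase ring and the licensing factors were lower in U2OS. All 6 subunits of MCM2-7 were called, from MCM3 at -0.45 to MCM6 at -0.90. MCM6 was at 210.5 and 187.2 CPM in U2OS and at 356.7 and 385.6 CPM in HCT116 (SE 0.12). The licensing factors CDC6, CDT1 and GMNN were called at -0.57, -1.07 and -1.09, and GMNN was at 43.05 and 34.19 CPM against 87.05 and 77.83 CPM. RPA1, the large RPA subunit, had the smallest p of the list, at 135.6 and 134.0 against 274.0 and 309.6 CPM (-1.11, SE 0.13, adjusted p = 4.56e-06). The clamp PCNA (-0.59) and the loader subunits RFC4 (-0.43) and RFC5 (-0.88) were lower as well, RFC5 at 72.64 and 73.66 against 131.0 and 137.5 CPM.

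Other parts of the machinery were higher in U2OS. POLD3 was at 69.01 and 73.52 CPM against 28.31 and 33.03 CPM (1.22, SE 0.15), and CDC45 at 101.3 and 95.52 against 48.78 and 52.72 CPM (0.96, SE 0.14). Their libraries did not overlap between the lines. POLE2 (1.08), POLA2 (0.58), PRIM2 (0.55), RPA3 (0.75), GINS4 (0.96), MCM10 (0.42) and TYMS (0.48) were called higher too. Complexes were divided between the directions: POLE was lower (-0.66) where POLE2 was higher, GINS1 was lower (-0.42) where GINS4 was higher, and ORC2, ORC3, ORC5 and ORC6 were lower (-0.51 to -0.59) where ORC4 was higher (1.17, SE 0.45).

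Genes around the machinery were read from 5 lists, also chosen with earlier results of these data known. In the knockout over both siRNAs, 6 of 20 regulators of the G1/S transition were called, 4 higher and 2 lower, where 17.6% of all tested genes were called, 11.0% higher and 6.62% lower. The cell cycle inhibitor CDKN1A (p21) was higher at 1.10 (SE 0.08, adjusted p = 0.000143), as were RB1 (0.63), CCND1 (0.31) and CCNE2 (0.47), and E2F1 and E2F2 were lower. Of 10 nucleotide supply genes, RRM2B, the ribonucleotide reductase subunit induced by p53, was called higher (0.94, SE 0.09), and TK1 (-0.48) and CAD (-0.37) were among those called lower. Of 9 genes of chromatin assembly behind the fork, 4 were called, all lower: DNMT1, ASF1B, UHRF1 and CHAF1A, at -0.35 to -0.39. Among 20 tested other replication genes 2 were higher (DONSON and DSCC1) and 2 lower (TICRR and RNASEH2A), a share near that of all tested genes, and of 16 mitosis genes CDK1 was higher and AURKB, PLK1 and CDC20 lower. CDKN1A, with a GC content of 58.1%, was higher against the trend with base composition described above. In the knockout against wild type under NORAD siRNA, each of these 5 lists held calls, where 18.1% of all tested genes were called. None of the 5 held a call for NORAD against control siRNA in KO cells (background 0.00727%). The same was true after SAM68 siRNA or plasmid in U2OS (background 0.00639% in each).

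NORAD is known for holding Pumilio proteins, which bind TGTANATA in 3′ UTRs and lower the RNAs that carry it. For each gene the coding transcript with the longest 3′ UTR was read. In 14 of the 49 members (28.6%) that 3′ UTR held the sequence on the transcript's strand, against 29.4% of the genes tested in HCT116. Of these members 5 held it at 2 or more places. Windows of 30 bases are given for 3 of these 5 genes, in GENCODE release 29 transcripts on GRCh38, with the match in capitals.

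PCNA (chr20:5115138-5115167, minus strand): atattgttttcTGTAAATAacctatttttt
MCM8 (chr20:5995858-5995887, plus strand): tgaatggaaaaTGTAAATAaaaagaactgg
RFC3 (chr13:33836477-33836506, plus strand): gtatgtagtttTGTACATAacttagagact

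After NORAD siRNA in WT cells the median log2 fold change of the members with such a sequence was -0.02, with 6 of 14 positive, beside 0.03 for the 35 members without it, 25 of them positive. With the GC offset 7 of 14 and 27 of 35 were positive, at medians of 0.01 and 0.05. In KO cells 12 of 14 and 26 of 35 were positive, at medians of 0.16 and 0.13, or 0.05 and 0.08 with the GC offset. The difference between members with and without the sequence was not tested. PCNA itself was at 370.5 and 361.1 CPM in WT cells with control and at 363.1 and 369.4 CPM with NORAD siRNA, while in KO cells it was at 347.3 and 342.8 against 412.5 and 370.5 CPM. DBF4 was at 62.90 and 71.41 against 57.78 and 63.96 CPM in WT cells and, in KO cells, at 66.47 and 80.44 against 89.65 and 94.21 CPM. In WT cells the groups of PCNA and DBF4 overlapped, and in KO cells the NORAD siRNA libraries of both were the higher ones, at an adjusted p above the threshold.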

How the data were processed

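Expected counts and TPM were estimated per gene by the authors with RSEM, per the file headers and the submitters' processing notes, 1 file per library, not pooled. The submitters' processing notes name STAR, RSEM and hg19. Versions and strand settings: not given in the sources used here. Stranded mRNA libraries were made from TRI reagent RNA, per the labels' protocols. The deposited expected counts were rounded and tested with edgeR 4.0.16 (R 4.3.3): TMM factors, filterByExpr, quasi-likelihood fits over the 8 libraries of a line (15658 genes in U2OS, 13764 in HCT116) or all 16 (16444), Benjamini-Hochberg over all tested genes. CPM values use the same scaling. Deposited TPM served for levels only. Transcript GC content came from the longest coding transcripts of GENCODE release 29, and 3′ UTRs from each gene's coding transcript with the longest 3′ UTR. Symbols were matched by gene number through RefSeq. DESeq2 1.42.0 and the other alternatives are given below. The tests were tried on simulated counts. Members and lists were chosen with earlier results of these data known. Per-library values are given for called members (up to 6 by smallest p) or, where none was called, the 3 smallest p. Listed genes are named where called (up to 4 a list), without per-library values. Others named, such as E2F1 and E2F2, those near 0, RFC1, PCNA or ORC4, were chosen after their values were seen.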

Additional observations from a re-analysis of the deposited data

How the results depend on the processing

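Every comparison was repeated with DESeq2, with RLE size factors, without a filter on low counts, with the replicate number as a block, with a GC content offset (lowess span 0.3), and without each library in turn. The 7 comparisons without a called member had none under any of these. Under NORAD siRNA the knockout gave 14 called members, 16 with DESeq2, 23 with the replicate block, 0 with the GC offset and 0 to 2 with 1 library left out. Over both siRNAs it gave 13, 14 with DESeq2, 21 with the replicate block, 8 with the GC offset and 0 to 16 with 1 library left out: 0 without the first WT NORAD siRNA library, 2 without the second KO control or first KO NORAD siRNA library, 3 without the first WT control, 4 without the second WT NORAD siRNA and 6 without the second KO NORAD siRNA library. The cause was not tested beyond the offset. Between the cell lines 22 to 37 members were called. Replicate numbers of the labels share only a number: over genes, the difference between a group's 2 replicates correlated between pairs of HCT116 groups at 0.079 to 0.317, not all above 0.1. Among named members no log2 fold change changed sign. Their calls were lost only in the knockout under NORAD siRNA and over both siRNAs, and the 7 comparisons without a called member had none to lose. Median log2 fold changes changed sign for SAM68 siRNA in U2OS (0.01 with DESeq2 or RLE, -0.047 to 0.046 with 1 library left out), NORAD siRNA in WT cells (-0.029 to 0.035) and the knockout under NORAD siRNA (-0.071 with the GC offset). With 2 libraries a group, small changes were not detectable.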
